A study of Mus musculus with 6 samples.

Results

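The Foxo genes encode a family of forkhead transcription factors. They were taken by gene name, which gave 4 of 27827 gene names, read by 6 of the 41174 probes on the array: Foxo1 (2 probes), Foxo3 (2 probes), Foxo4 (1 probe) and Foxo6 (1 probe). They were read in mouse pre-pro-B cells deficient in Ebf1 (Ebf1 -/- in the sample titles and Ebf -/- in the genotype label), a deficiency that both groups share. Pre-pro-B cells are the earliest B-directed progenitors and do not advance without Ebf1, a transcription factor of B lineage commitment. Cells of the Ebf1 group (n = 3 arrays) received the retrovirus pMYs-Ebf1beta-IRES-EGFP, and those of the control group (n = 3 arrays) received pMYs-IRES-EGFP. Both groups were grown on a layer of OP9 stromal cells in Flt3 ligand, interleukin 7 and stem cell factor (10 ng/ml of each), and EGFP-positive cells were sorted 24 h after infection. The insert was driven by a retrovirus, so its dose need not match that of the native gene. The labels do not say whether the arrays of a group came from separate cultures, and p-values therefore measure only the spread between these samples, which may be technical.

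Foxo proteins bind DNA in the nucleus and activate genes of cell cycle arrest, stress resistance, cell death and nutrient use. When growth factors activate phosphoinositide 3-kinase (PI3K) and the kinase Akt, Foxo proteins are phosphorylated, held by 14-3-3 proteins and kept in the cytoplasm, so that transcript level is only one of the controls on their activity. In early B cell development Foxo1 is known to act on the interleukin 7 receptor gene and on the recombination genes, and Ebf1 and Foxo1 are known to act on each other's genes.

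Intensities of all arrays were set relative to the 75th percentile of each array, which was a signal of 316 to 364 on Ebf1 arrays and 240 to 366 on control arrays. Testing was limited to the 20455 probes with a signal well above background, as called by the scanner software, in every replicate of the Ebf1 group, of the control group or of both. Of these 21.7% passed the test (11.5% higher and 10.2% lower in Ebf1 cells). All 10 pre-pro-B markers on the list were tested. Ptprc, whose products include the B220 antigen of these cells, was 1 of the 3 that did not pass. It stood at 4.74 ± 0.06 on Ebf1 arrays and 4.83 ± 0.16 on control arrays (log2 of the percentile-scaled signal, SD, n = 3 each). Whether its probe reads the B220 form was not looked up. The tested Ebf1 probe gave 423, 457 and 381 in Ebf1 replicates 1 to 3, against 663, 257 and 336 in control replicates 1 to 3. It did not separate the groups (log2 change -0.15 ± 0.21, SE, limma adjusted p = 0.646), and the other Ebf1 probe was below background throughout. The place of these probes relative to the viral insert was not analysed here, so they do not check the labels. Markers of the OP9 feeder cells moved with the groups. For the 14 of 19 that were tested, the summed signal was 27.2 to 35.4 times the 75th percentile on Ebf1 arrays and 17.0 to 24.3 times on control arrays. Their median log2 change was 0.61, against -0.06 over all genes. Fstl1, Col5a1 and Fn1 passed the test as higher in Ebf1 cells and none as lower. These are 21.4% of the tested markers, against 23.6% of all genes counted by 1 probe each. Each of these calls was lost without some single array, and with scaling to the median in place of the 75th percentile. Dcn, Lum, Postn, Pdgfra and Thbs1 were too dim to be tested. The part of the feeder cells in the results was not tested. In bulk RNA, a change in the number of cells of a type and a change in RNA per cell cannot be told apart. Of 10 pre-pro-B markers 3 rose (Ly6d, Rag1 and Cd24a) and 4 fell (Kit, Il7r, Spn and Cd93), with 70% called. The steepest log2 changes among them were 2.62 for Ly6d and -1.82 for Kit. Of 8 tested myeloid and dendritic cell markers 2 rose and 5 fell (87.5% called). The arrays lay on 3 slides, of which 1 held both groups (Ebf1 replicate 1 and control replicate 2). With slide as a fixed term, a log2 change is therefore the difference between this pair of arrays alone. The other arrays enter only its SE, so calls kept or lost with that term rest on this pair.

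Foxo6 had the widest separation between the groups of the 6 probes. Foxo6 is the family member best known from the brain, and it is known to stay in the nucleus more than its relatives do. Its probe lies on chromosome 4 (119939688 to 119939747, minus strand, mm9) in the RefSeq transcript of the gene. The processed signal was 1265, 1039 and 714 in Ebf1 replicates 1 to 3, against 3.57, 3.02 and 2.31 in control replicates 1 to 3. All 3 Ebf1 arrays were well above background and none of the control arrays was, so the groups did not overlap and the size of the change has only a lower bound. The bound sets the mean of the Ebf1 arrays against a control mean, with each control array raised to its lowest signal well above background. By it Foxo6 was at least 74.6-fold higher in Ebf1 cells. The limma adjusted p of 9.22e-07 belongs to the fitted change, which uses the control values below background, and not to the bound. The probe entered the test only through the Ebf1 arrays, and without a filter on dim probes the limma adjusted p was 8.08e-05. As log2 of the percentile-scaled signal, the probe measured 1.52 ± 0.32 in Ebf1 cells and -6.60 ± 0.26 in control cells (SD, n = 3 each).

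The fitted log2 change of Foxo6 over all arrays was 8.12 ± 0.21 (SE), but it uses control signals below background. It ran from 7.98 to 8.29 when single arrays were left out, and the bound from 67.7-fold to 84.1-fold. Within the slide that held both groups the log2 difference was 8.11. With normexp background correction, which adds an offset of 50 to every signal and so compresses dim values, the log2 change was 3.74. Across the array 561 probes, or 2.74% of those tested, were well above background on all Ebf1 arrays and on no control array. The median bound of that set was 1.81-fold, and Foxo6 had its 9th largest bound. Only 1 probe reads Foxo6 here, so no second probe bears on this value.

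**Figure D1:**
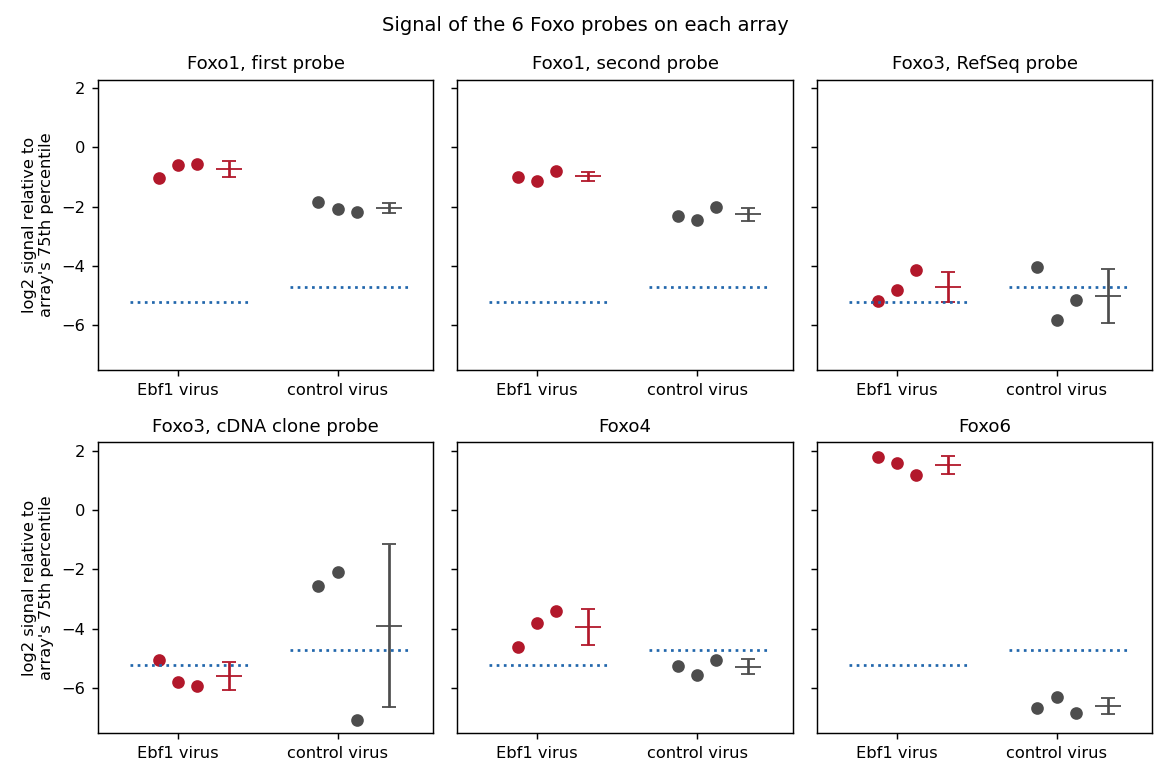
Percentile-scaled log2 signal (vertical axis) for each of the 6 Foxo probes in Ebf1 virus arrays (red) and control virus arrays (grey), with points for single arrays, bars for the mean and SD (n = 3), and dotted lines for the group mean of the lowest signal well above background. Foxo6 lies at 1.52 on average in Ebf1 cells and at -6.60 in control cells, whereas both Foxo1 probes lie well over the dotted line in both groups.

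The genes around Foxo6 were examined after its value had been seen. Within 400 kb of the Foxo6 probe on the mm9 map lay 10 other probes, and 6 of them were not well above background on any array. Edn2, which encodes endothelin 2 and lies 100 kb away, was above background on 1 Ebf1 array and 0 control arrays, at -6.03 ± 1.13 in Ebf1 cells and -6.62 ± 0.45 in control cells (log2 signal, SD, n = 3 each). Of the 2 neighbouring probes that were tested, Ctps, a gene of CTP synthesis, fell by 0.97 ± 0.17 (log2 change, SE, limma adjusted p = 0.00591). A probe of Scmh1, a Polycomb group gene, had a log2 change of -0.24 ± 0.23 and did not pass (adjusted p = 0.472). No neighbour in this window passed the test as higher in Ebf1 cells.

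**Figure D2:**
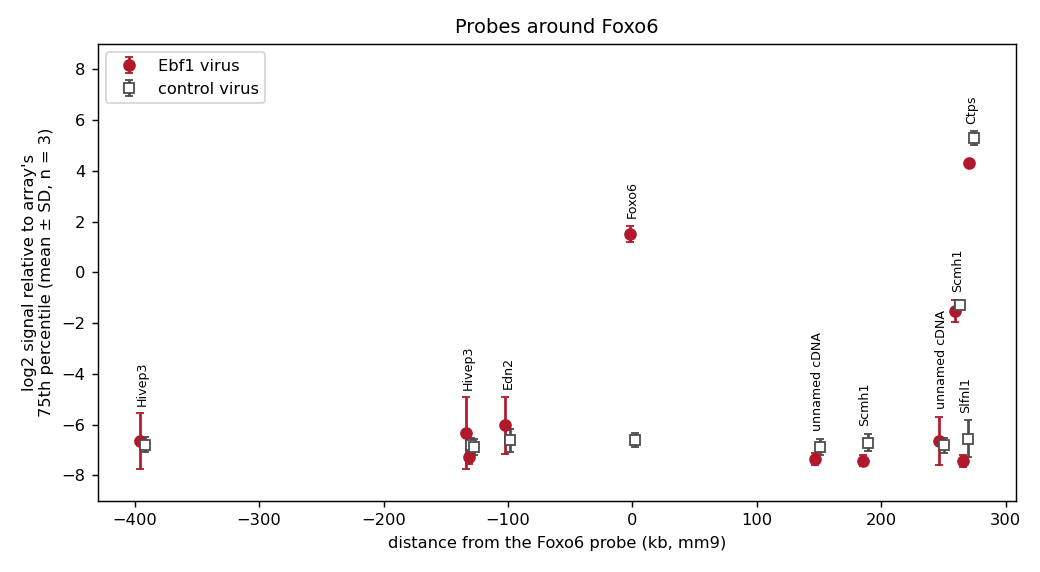
Mean of the percentile-scaled log2 signal, with SD (n = 3), for the probes within 400 kb of the Foxo6 probe, plotted by distance in kb, in Ebf1 virus cells (red circles) and control virus cells (open squares). The Foxo6 pair stands 8.12 apart, and no other pair lies more than 0.97 apart.

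Foxo1, the member with an established part in early B cells, rose by both of its probes. The first probe lies on chromosome 3 at 52150183 to 52150242 and the second at 52153289 to 52153348 (plus strand, mm9), beginning at bases 2271 and 4773 of the RefSeq transcript. Signals of the first probe were 176, 229 and 217 in Ebf1 replicates 1 to 3, against 102, 57.1 and 57.4 in control replicates 1 to 3. Signals of the second were 182, 159 and 181 in Ebf1 replicates, against 73.4, 44.4 and 64.2 in control replicates. Every Ebf1 array was higher than every control array on both probes, and all 6 arrays were well above background.

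The log2 change of Foxo1 was 1.30 ± 0.19 on the first probe (SE, limma adjusted p = 0.00233), which is 2.47-fold. It was 1.28 ± 0.17 on the second probe (adjusted p = 0.0015), which is 2.43-fold, so the probes differed by far less than either SE. Within the shared slide, and so also with slide as a fixed term, the log2 difference was 1.02 on the first probe and 1.43 on the second. With slide as a fixed term in the model the second probe passed (adjusted p = 0.0337) and the first did not (adjusted p = 0.0723). With normexp correction the log2 changes were 0.97 and 0.71, and both probes passed there and without any single array. With slide as a random block (correlation 0.0106) the 4 Foxo calls and all calls on the gene lists described here were kept.

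The probe sequences shown here are those by which Foxo1 and Foxo4 were read. They are printed 5′ to 3′ in lower case from the array files, and no run longer than 8 bases was shared between any pair of the 6 Foxo probes.
Foxo1 first probe: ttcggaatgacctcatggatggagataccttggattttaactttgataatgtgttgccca
Foxo4 probe: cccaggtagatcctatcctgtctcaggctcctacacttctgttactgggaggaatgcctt

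Foxo4, a family member known from muscle and other tissues, was dim in both groups. Its probe (chromosome X, 98454216 to 98454275, plus strand, mm9) gave signals of 14.9, 24.5 and 30.0 in Ebf1 replicates 1 to 3, against 9.63, 5.12 and 7.94 in control replicates 1 to 3. The 3 Ebf1 arrays were well above background, no control array was, and the groups did not overlap. Foxo4 was at least 1.69-fold higher in Ebf1 cells, a bound that ran from 1.40-fold to 2.13-fold when single arrays were left out. Among the 561 probes above background on all Ebf1 arrays and no control array, this bound ranked 305th, and their median was 1.81-fold. The fitted log2 change of Foxo4, 1.33 ± 0.31 (SE), passed the test (limma adjusted p = 0.02). The call was lost with normexp correction, where the log2 change was 0.16 (adjusted p = 0.632). It was also lost without a filter on dim probes (1.33, adjusted p = 0.102), which is the filter that the probe passed only through the Ebf1 arrays. It was lost with slide as a fixed term (0.94, adjusted p = 0.109), and without Ebf1 replicate 2 (adjusted p = 0.0628), control replicate 1 (adjusted p = 0.0569) or control replicate 2 (adjusted p = 0.0683).

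Foxo3, known for keeping blood stem cells quiescent, did not pass the test. Its RefSeq probe (chromosome 10, 41905752 to 41905811, minus strand, mm9) gave 10.2, 12.4 and 17.9 in Ebf1 replicates 1 to 3, against 22.4, 4.26 and 7.31 in control replicates 1 to 3. The groups overlapped, since control replicate 1 was the highest array and control replicate 2 the lowest. The log2 change was 0.30 ± 0.45 (SE, limma adjusted p = 0.67), with 3 Ebf1 arrays and 1 control array above background. The second Foxo3 probe (chromosome 10, 41900547 to 41900606), named on the array after a cDNA clone, was above background on 1 Ebf1 and 2 control arrays and was not tested. It gave 11.1, 6.30 and 5.14 in Ebf1 replicates, against 61.7, 57.0 and 1.95 in control replicates, so control replicate 3 lay far below its companions.

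Of the 5 Foxo probes that were tested, 4 passed as higher in Ebf1 cells and 0 as lower, against the 21.7% of all tested probes that passed in either direction. The groups did not overlap on 4 of the 5, against 42.6% of all tested probes. Nothing is read from these counts, because the probes of Foxo3, Foxo4 and Foxo6 entered the test only through the Ebf1 arrays, and the other Foxo3 probe did not enter it. Whether Foxo1 and Foxo3 changed unequally was tested on the difference of their log2 signals within each array. That difference was 3.97 ± 0.32 in Ebf1 cells and 2.97 ± 0.78 in control cells (SD, n = 3 each). The gap was 1.00, and 2 of 3 Ebf1 arrays exceeded all control arrays. An exact two-sided permutation test gave p = 0.2, but it could not have reached 0.05, since 0.1 is the smallest p that 3 against 3 arrays allow. The Foxo3 signal was also above background on only 1 of 3 control arrays, so whether the changes were unequal is not settled by these values.

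**Figure D3:**
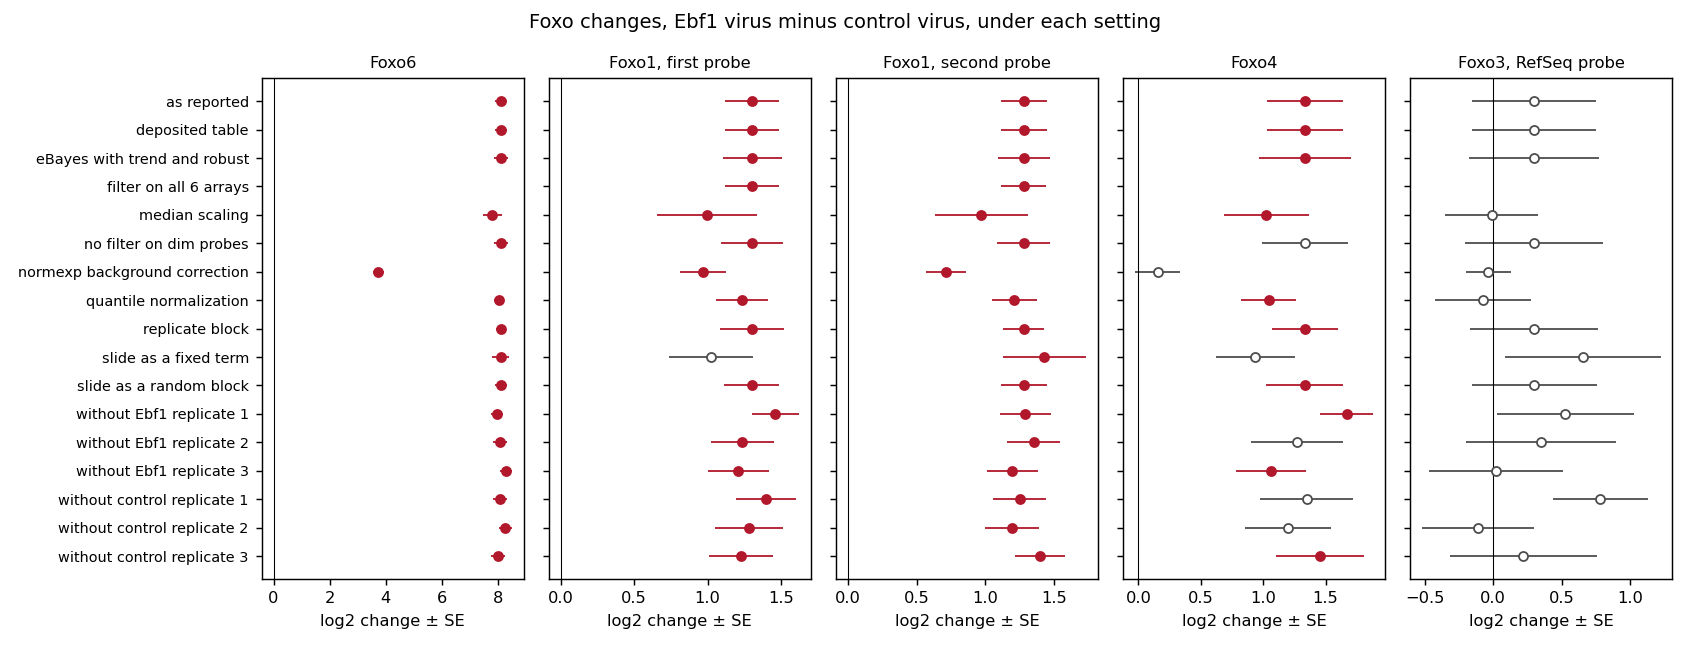
Log2 change with SE (horizontal axis, a scale of its own in each panel) of the 5 tested Foxo probes, Ebf1 virus minus control virus, under each processing setting listed on the vertical axis, filled red where the adjusted p was under 0.05 and open where it was not. Foxo6 stays between 3.74 and 8.29, the first Foxo1 probe is open with slide as a fixed term, Foxo4 is open in 6 settings and Foxo3 is open throughout, with no point where a filter removed the probe.

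The promoters of Foxo1 and Foxo3 are shown because Ebf1 proteins bind a known palindrome, the letters CCCNNGGG with a T before and an A after them, and because Foxo1 rose. The promoter set used held no entry for Foxo4 or Foxo6, so none is printed for them. Each sequence holds the 250 bases before the gene start (RefSeq, GRCm38.p6), with the match in capitals. The Foxo1 window (chr3:52268087-52268336, plus strand) holds the palindrome 92 bases before the start.
Foxo1 promoter: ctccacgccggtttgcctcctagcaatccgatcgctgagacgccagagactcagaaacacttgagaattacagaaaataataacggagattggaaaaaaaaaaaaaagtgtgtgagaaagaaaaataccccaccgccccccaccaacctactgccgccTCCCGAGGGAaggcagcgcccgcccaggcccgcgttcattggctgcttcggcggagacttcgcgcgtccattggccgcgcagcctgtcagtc
The Foxo3 window (chr10:42276696-42276945, minus strand) holds no full palindrome, and the capitals mark its match to the inner part CCCNNGGG, 88 bases before the start.
Foxo3 promoter: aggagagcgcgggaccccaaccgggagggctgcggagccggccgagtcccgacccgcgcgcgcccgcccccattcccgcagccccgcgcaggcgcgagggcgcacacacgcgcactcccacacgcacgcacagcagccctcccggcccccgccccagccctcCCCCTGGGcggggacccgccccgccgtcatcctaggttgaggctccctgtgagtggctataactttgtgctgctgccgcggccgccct
Both motifs read the same on either strand, and every full palindrome contains the inner part. Among 32851 promoter windows of 300 bases (250 before and 50 after a start), 0.904% held the palindrome and 13.7% the inner part. Of the Foxo target genes described below, 0 of the 64 with a window held the palindrome, against 1.06% of 27025 genes. It was also in 0 of the 22 of them that were called. A match describes the letters of the window and does not show that a protein binds there.

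Over the 6 arrays, the genes whose log2 signal followed the first Foxo1 probe most closely were Jup (Pearson r = 0.997), Amy1 (0.993), Ifitm7 (0.992), Trpc2 (0.992) and Cir1 (0.992). Jup encodes the junction protein plakoglobin and Ifitm7 an interferon-induced membrane protein. The 6 points of each correlation fall into the same 2 groups, and 8.30% of 13831 genes had r above 0.9, so the order among them says little.

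PI3K and Akt act upstream of Foxo proteins, and their genes gave calls in both directions, as did all genes. Genes are counted here by 1 probe each, the tested probe with the highest mean, and of 13837 genes tested in this way 23.6% passed (12.6% higher and 11.0% lower in Ebf1 cells). Of 33 genes of this pathway 29 were tested, of which 4 rose, 4 fell and 21 did not pass. The share called was 27.6%, near the 23.6% of all genes, so nothing is read from the count. The median log2 change was 0.00 against -0.06 over all genes. Inpp5d, which encodes the lipid phosphatase SHIP1, an opponent of PI3K in blood cells, rose by 1.08 ± 0.17 (log2 change, SE, limma adjusted p = 0.00395). Pik3ip1, an inhibitor of PI3K, rose by 0.70 ± 0.18, with 1 of its 2 tested probes called. Pdpk1, the kinase that activates Akt, rose by 0.52 ± 0.15, with 2 of 3 called.

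Among the genes of the pathway that fell, Pik3r1, the main regulatory subunit of PI3K, fell by 0.85 ± 0.18 on the log2 scale. Of its 4 tested probes 3 were called. Pik3cg, a catalytic subunit, fell by 0.62 ± 0.14. Inppl1, a lipid phosphatase related to SHIP1, fell by 0.64 ± 0.16. Phlpp2, a phosphatase that acts on Akt, fell by 0.59 ± 0.17, with 1 of its 2 tested probes called. Of the 8 calls on the list 2, Inpp5d among them, were kept without any single array, and 0 were kept with slide as a fixed term. With median scaling 5 genes of the list were called.

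Genes of proteins that bind or modify Foxo factors gave calls in both directions. Of 38 genes 37 were tested, of which 2 rose, 3 fell and 32 did not pass. The share called was 13.5%, below the 23.6% of all genes, and the median log2 change was -0.24. Sirt2, a deacetylase known to act on Foxo1 and Foxo3, had signals of 3719, 3494 and 3183 in Ebf1 replicates 1 to 3, against 797, 550 and 647 in control replicates. These groups lie far apart, at a log2 change of 2.13 ± 0.13 or 4.37-fold (limma adjusted p = 3.58e-05), and all 3 tested Sirt2 probes passed. Mapk3, the kinase ERK1, rose by 0.60 ± 0.16. Setd7, a lysine methyltransferase, fell by 0.94 ± 0.21. Usp7, which removes ubiquitin from Foxo4, fell by 0.67 ± 0.20, and Skp2, a ubiquitin ligase subunit for Foxo1, fell by 0.46 ± 0.13. For Usp7 and for Skp2, 1 of 2 tested probes was called. Sirt2 was the gene of this list whose call was kept under each alternative, and each of the other 4 lost it without at least 4 of the 6 arrays in turn and with slide as a fixed term.

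Genes known as Foxo targets in lymphocytes were split in direction. Of 29 genes 21 were tested, of which 9 rose, 6 fell and 6 did not pass, with a median log2 change of -0.02. The share called was 71.4%, against 23.6% of all genes. Nothing is read from this share, because the list was chosen with earlier results of these data known. The list holds genes that Ebf1 is itself known to activate, and these were the steepest: Igll1 and Vpreb1 of the surrogate light chain, and Cd79b of the B cell receptor, rose by 11.00 ± 0.14, 8.20 ± 0.15 and 7.42 ± 0.15 on the log2 scale. Igll1 was above background on 2 of 3 control arrays and the other pair on all of them. Bcl6, a repressor that Foxo factors are known to induce, rose by 2.61 ± 0.23 and Tcf7, a factor best known from T cells, rose by 1.61 ± 0.22.

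The Foxo1 targets of B cell progenitors did not move together. Il7r, the interleukin 7 receptor, had signals of 764, 683 and 730 in Ebf1 replicates 1 to 3, against 2369, 1855 and 1660 in control replicates. All Ebf1 arrays were lower than all control arrays, and Il7r fell by 1.69 ± 0.15 (log2 change, SE, limma adjusted p = 0.000196), whereas Foxo1 rose. Rag1, a subunit of the recombinase, had signals of 145, 120 and 135 in Ebf1 replicates, against 74.8, 62.7 and 48.4 in control replicates. It rose by 0.86 ± 0.18 (adjusted p = 0.0131, 0.053 without control replicate 3), with 2 of its 3 tested probes called. The Rag1 call was also lost with median scaling (adjusted p = 0.245), with slide as a fixed term (adjusted p = 0.22), without a filter and with the replicate block. Rag2, the other recombinase subunit, was not tested for lack of signal above background.

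Blnk, the adaptor of the pre-B cell receptor, gave 11.4, 20.8 and 165 in Ebf1 replicates 1 to 3, against 3.06, 2.76 and 1.86 in control replicates. Ebf1 replicate 3 thus stood far above the other Ebf1 arrays. Blnk was at least 2.59-fold higher, a bound that was 1.13-fold without Ebf1 replicate 3 and 4.60-fold without Ebf1 replicate 1. Its fitted change had a limma adjusted p of 0.0316. The call was lost without Ebf1 replicate 2, without any 1 of the control arrays, with the replicate block, with slide as a fixed term, with normexp correction and with no filter. Klf2, a quiescence factor, was at a log2 change of -0.36 ± 0.36 and Syk, a kinase of receptor signalling, was at -0.03 ± 0.15, and neither passed (adjusted p = 0.507 and 0.898).

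Further Foxo targets of lymphocytes were lower in Ebf1 cells. Tnfsf10, the death ligand TRAIL, fell by 2.73 ± 0.39 on the log2 scale with 2 of 3 Ebf1 arrays above background, and Ctla4, an inhibitory receptor of T cells, was at least 4.81-fold lower. Itgb7, an integrin chain of gut homing, fell by 1.47 ± 0.18, and Ccr7, the lymph node homing receptor, fell by 1.41 ± 0.24. Markers of T and innate lymphoid cells moved in the same samples: of 8 tested 6 fell and 1 (Gzma) rose (87.5% called). The part of such cells in these values was not tested. The summed signal of these markers was 49.6 to 57.9 times the 75th percentile on Ebf1 arrays and 36.5 to 43.6 times on control arrays. Gzma alone, which encodes a granzyme, made up 41.4 to 48.4 on Ebf1 arrays and 0.919 to 1.19 on control arrays. Without it, a sum chosen after the values were seen, the other 7 reached 7.73 to 9.48 on Ebf1 arrays and 35.4 to 42.4 on control arrays. Of the 15 calls on the list 11 were kept without any single array and 7 with slide as a fixed term (Il7r, Ccr7, Ctla4, Bcl6, Cd79b, Vpreb1 and Igll1). Normexp correction gave a log2 change of -0.59 for Ctla4 and of -1.04 for Tnfsf10.

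**Figure D4:**
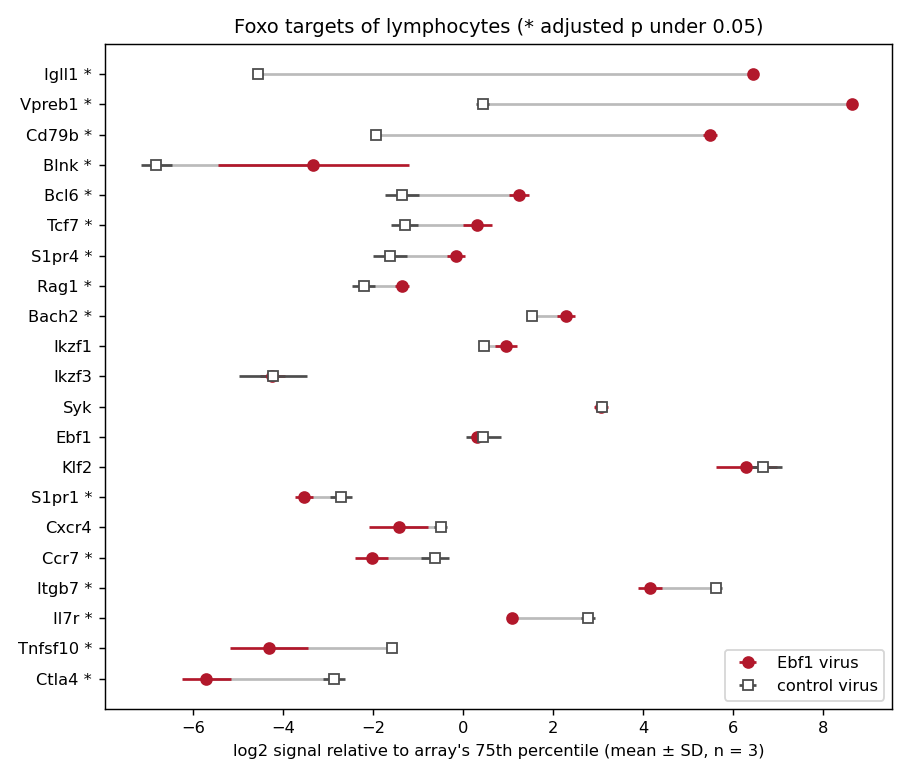
Mean of the percentile-scaled log2 signal, with SD (n = 3), for the 21 tested Foxo targets of lymphocytes in Ebf1 virus cells (red circles) and control virus cells (open squares), ordered by log2 change, with a star for an adjusted p under 0.05. Igll1, Vpreb1 and Cd79b lie far to the right in Ebf1 cells, and Il7r, Tnfsf10 and Ctla4 lie to the left in Ebf1 cells.

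Among Foxo targets of cell cycle, death, stress and metabolism, 45 of 48 genes were tested. Of these 8 rose, 2 fell and 35 did not pass (22.2% called, a share near the 23.6% of all genes). The median log2 change was 0.09. Trim63, the muscle ubiquitin ligase MuRF1 and a classical Foxo target of muscle wasting, gave 212, 170 and 149 in Ebf1 replicates 1 to 3, against 5.54, 2.69 and 2.67 in control replicates. No control array was above background, and Trim63 was at least 13.4-fold higher in Ebf1 cells. Its fitted change, which uses those control values, had a limma adjusted p of 2.61e-06. Its companion in muscle, Fbxo32, named after its value was seen, had a log2 change of 0.33 ± 0.16 and did not pass (adjusted p = 0.18). Tsc22d3, the glucocorticoid-induced leucine zipper, rose by 1.31 ± 0.18. Ccng2, a cyclin of cell cycle arrest, rose by 1.03 ± 0.19, Ddit3, a stress factor, by 0.99 ± 0.15, and Cdkn1a, the inhibitor p21, by 0.81 ± 0.18.

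Cited2, a coactivator partner, fell by 1.03 ± 0.25 on the log2 scale. Gabarapl1, an autophagy gene, fell by 0.57 ± 0.16, with 1 of its 2 tested probes called. Of the 10 calls on this list 4 (Ccng2, Ddit3, Tsc22d3 and Trim63) were kept without any single array, and 3 (Tsc22d3, Cited2 and Trim63) were kept with slide as a fixed term. With median scaling, which lowers all changes by 0.31, 6 genes of the list were called and 3 of these 10 calls were kept.

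The Foxo core motif GTAAACA was searched on both strands in the promoter windows of the 64 target genes of both lists that were on the array and had a window. It was found in 8 of them (12.5%), against 4.05% of 27025 genes. Of the 22 called targets with a window 3 held it, which were Trim63, Tcf7 and Txnip. The printed part of the Trim63 window is chr4:134314870-134315119 (plus strand, GRCm38.p6), with the match on the opposite strand 194 bases before the start. That of Txnip is chr3:96557707-96557956 (plus strand), with the match 121 bases before the start. Both are printed from RefSeq with the match in capitals, because these genes passed the test and hold it before the start. The Tcf7 match lies after the start and is not printed. Txnip, a redox regulator named after its value was seen, rose by 0.67 ± 0.19 (log2 change, SE, limma adjusted p = 0.0439), a call that was lost without any 1 of 5 arrays.
Trim63 promoter: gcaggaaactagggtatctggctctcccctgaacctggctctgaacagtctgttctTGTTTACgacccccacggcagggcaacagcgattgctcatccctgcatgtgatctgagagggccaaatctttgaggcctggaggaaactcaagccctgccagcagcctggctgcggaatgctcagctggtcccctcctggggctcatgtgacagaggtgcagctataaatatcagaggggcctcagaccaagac
Txnip promoter: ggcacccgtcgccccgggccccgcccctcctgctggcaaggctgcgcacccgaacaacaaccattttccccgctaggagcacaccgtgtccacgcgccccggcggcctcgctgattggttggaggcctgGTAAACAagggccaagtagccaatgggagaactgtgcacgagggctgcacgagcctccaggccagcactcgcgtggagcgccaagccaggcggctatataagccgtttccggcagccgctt

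**Figure D5:**
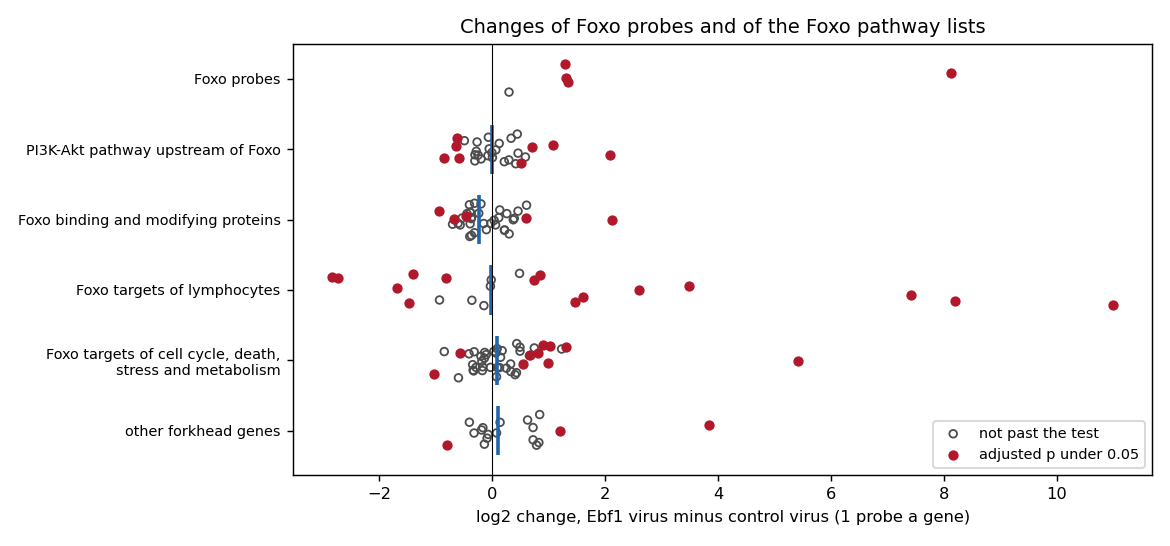
Log2 change, Ebf1 virus minus control virus (horizontal axis), of the 5 tested Foxo probes and of the tested genes of each list (1 point a gene), filled red where the adjusted p was under 0.05, with a blue bar for the median of each gene list. Foxo6 stands at 8.12 in the top row, and the medians of the gene lists lie between -0.24 and 0.11.

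Among other forkhead genes 18 of 36 on the array were tested, of which 2 rose, 1 fell and 15 did not pass (16.7% called, against 23.6% of all genes), with a median log2 change of 0.11. Foxs1, a forkhead gene known from the peripheral nervous system and blood vessel walls, gave 1243, 827 and 746 in Ebf1 replicates 1 to 3, against 75.1, 44.8 and 45.5 in control replicates. All 6 arrays were above background without overlap, and the log2 change was 3.83 ± 0.19, or 14.2-fold (limma adjusted p = 1.02e-05), a call kept under each alternative. Foxj1, the factor of motile cilia, rose by 1.20 ± 0.36 (limma adjusted p = 0.0496). It was above background on 1 of 3 control arrays, so it entered the test only through the Ebf1 arrays. Foxf1, a factor of mesenchyme, fell by 0.81 ± 0.20. Both calls were lost without any 1 of 5 arrays, with slide as a fixed term and with normexp correction, where Foxj1 was at 0.20.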

How the data were processed

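Cy3-labelled material from total RNA was read on 6 Agilent arrays of 1 colour. Per the file headers, Feature Extraction 10.5.1.1 gave the spot intensities, background-subtracted and corrected for spatial trends by the authors, with no normalisation between arrays, and probe positions are those of mm9. The deposited table of intensities equalled the processed signal at all 45018 features (largest difference 0%). No spot of a non-control probe was saturated.

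The log2 processed signal was taken minus each array's 75th percentile, outlier spots (65 to 116 an array) were left out and spots of a probe averaged. A probe was tested when well above background on all 3 arrays of a group (20455 probes, of which 8 lacked a value on some array and no Foxo probe did). Groups were compared with limma 3.58.1 (R 4.3.3), two-sided, Benjamini-Hochberg threshold 0.05. Symbols were updated through RefSeq accessions of GRCm38.p6 (25097 of 41174 probes matched). In simulated data with this spread over 20447 probes, 50 probes were changed at each log2 size of 0.5, 1, 2 and 4. Of these 0%, 40%, 76% and 100% were recovered, in that order. Far fewer probes were changed there than were called in the data, so recovery in the data may differ.

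Foxo probes were chosen by gene name, and the lists from general knowledge. The members and lists were chosen with earlier results of these data known. Named genes are all Foxo probes, Il7r, Rag1, Rag2, Klf2, Blnk and Syk, up to 5 called genes of each list in each direction by smallest p, and the 5 genes most like Foxo1; some genes under this rule are not reported here. The alternatives were other background correction, scaling, filters, blocks, spread estimates, probe averages, the authors' deposited values, and each array left out in turn. Number of arrays limits the precision.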

Additional observations from a re-analysis of the deposited data

How the results depend on the processing

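Foxo6 was called under each of the alternatives that could test it, at log2 changes of 3.74 (normexp) to 8.29. Under the filter on all 6 arrays Foxo3, Foxo4 and Foxo6 had no tested probe, so 2 Foxo probes were called there, as with slide as a fixed term. With that term, the first Foxo1 probe was at 1.02 and Foxo4 at 0.94, and neither was called, while the second Foxo1 probe was (1.43). Foxo4 was also not called with normexp (0.16) and without a filter (1.33), and ran from 1.06 to 1.67 without single arrays, with the calls lost between 1.20 and 1.35. Foxo3 was not called under any setting, and its direction turned with normexp (-0.034), quantile normalization (-0.072) and median scaling (-0.010), without a filter, when its other probe is the brighter (-1.69), and without control replicate 2 (-0.11, range -0.11 to 0.78 over single arrays). The gap between Foxo1 and Foxo3 was 2.99 without a filter and 0.37 with slide as a fixed term.

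Over the array 4435 probes were called, 1996 without a filter, 2168 with slide as a fixed term, and 2631 to 3727 without single arrays (2631 without control replicate 2 and 2781 without control replicate 3). Median scaling shifted the median change by -0.31 and gave 1256 higher and 2642 lower calls, against 2350 and 2085.

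Called genes of the PI3K and Akt list (8) were 5 with median scaling, 2 without a filter, 3 with the replicate block, 0 with slide as a fixed term by limma (7 at an unadjusted p under 0.05) and 2 to 6 without single arrays (2 without control replicate 2). Of the binding and modifying proteins (5) they were 1 without a filter, 2 with the replicate block, 2 with slide as a fixed term and 1 to 3 without single arrays. Of lymphocyte targets (15) they were 8 with slide as a fixed term. Of the other targets (10) they were 6 with median scaling, 3 without a filter, 4 with slide as a fixed term and 5 to 8 without single arrays. Of other forkhead genes (3) they were 1 without a filter, 1 with slide as a fixed term, 5 with the trend and robust options and 1 to 3 without single arrays. The cause was not tested.

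Replicate numbers do not pair the samples: same-numbered arrays had correlated deviations of -0.17, -0.25 and 0.10, and Ebf1 replicate 1 deviated most like control replicate 2, its slide partner (0.29). With the replicate block 3096 probes and the same number of Foxo probes (4) were called, with Foxo1 at 1.30 and Foxo6 at 8.12. Signals near background limit what Foxo3 and Foxo4 can show.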
